A study of Mus musculus with 8 samples.

Results

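Nuclear factor I (NFI) proteins were mapped by chromatin immunoprecipitation and sequencing (ChIP-seq) in mouse granule neuron progenitors, the dividing cells of the external germinal layer that give rise to cerebellar granule neurons. The regions described here were chosen by a rule on the peak calls and on position. Peaks of the 6 deposited lists were joined into 1 region where they shared 1 bp or more, and a region was kept where all 6 libraries had a peak and its midpoint lay more than 100 kb from every start site of a protein-coding transcript. This gave 2521 far common regions among 46070 merged regions in all. The other 3541 regions with a peak in all 6 libraries lay within 100 kb of such a start site and are called near common regions. Distances to a start site below are to these protein-coding ones unless a noncoding RNA is named. The cells were taken from postnatal day 7 cerebellum with papain, and the labels record no mutation or drug treatment. NfiA (Abcam ab41851), NfiB and NfiX (Sigma Aldrich SAB1401263) were each precipitated from 1 library of CD1 mice and 1 library labelled as a mixed background similar to outbred CD1, called Mixed here. For NfiB the sample labels and the design text of the series name antibodies of different suppliers, so its antibody is left unnamed. The 2 input libraries have no peak list and were not analysed here. The 2 libraries of a factor come from different backgrounds, so they differ in animals and in background at once. The labels do not say whether the libraries of 1 background came from separate animals, so p-values measure only the spread between these libraries, part of which may be technical. No RNA was measured, and the labelled cell type cannot be checked against its markers in peak lists.

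NFI proteins are a small family of transcription factors that bind DNA as dimers through a conserved amino-terminal domain. Their full site is a palindrome of 2 arms, TTGGC and GCCAA, that face each other across a short spacer, and a single arm can be bound more weakly. In the granule cell lineage NFI proteins are known from mouse studies for their part in the switch from progenitor to differentiating neuron, in axon extension, dendrite formation and migration. A region far from any protein-coding start site is a candidate distal element, though it can lie near the start of a noncoding RNA. With start sites of every biotype, 490 common regions lay more than 100 kb away. The genes that flank a region are given below to locate it and not as its targets.

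Sequence could be read for 65 of the 2521 far common regions (2.58%), because no genome sequence was used and the bases had to come from GENCODE transcripts (50 windows) or from the RefSeq promoter table of GRCm38.p6 (15 windows). Each window reaches 50 bases to either side of the median summit of the 6 libraries, and all are printed on the plus strand of mm10. The full palindrome, with TTGGC and GCCAA 5 bases apart, was present in 3 windows. These 3 sequences are shown because they hold the complete site, which is in capitals. The first lies in an exon of the transcript 9430092D12Rik between Usp25 and Gm11146, 187 kb from the nearest protein-coding start site.
chr16:77414711-77414811: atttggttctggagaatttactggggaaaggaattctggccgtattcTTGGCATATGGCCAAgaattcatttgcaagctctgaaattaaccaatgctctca
The second lies in the processed pseudogene Gm19113 between Eepd1 and B3gat1, 366 kb from a protein-coding start site.
chr9:26367671-26367771: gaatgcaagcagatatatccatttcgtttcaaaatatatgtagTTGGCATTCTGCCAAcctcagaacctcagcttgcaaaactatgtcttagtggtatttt
The third lies in an exon of Eya4, a phosphatase and transcriptional coactivator gene, 133 kb from its nearest start site, and its 15-base site alone is given.
chr10:23104001-23104101, site: TTGGCTGTGTGCCAA
The centres of these 3 palindromes lay at most 14 bases from the median summit. The regions around them had fold enrichments of 9.79 to 17.9 near Gm11146, 7.88 to 16.0 near B3gat1 and 7.72 to 11.2 in Eya4 over the 6 libraries.

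A looser form of the site, with arms of 4 bases (TGGC and GCCA, 5 bases apart), was added after the first counts were known and was present in 13 windows, the 3 above included. The 3 next highest regions with this form are shown with its 13 bases in capitals. They lie in lincRNA D030068K23Rik between Zfhx3 and Pmfbp1, in lincRNA AC145590.1 between Rorb and Anxa1, and in the pseudogene AC132481.2 inside Zfand3.
chr8:109251473-109251573: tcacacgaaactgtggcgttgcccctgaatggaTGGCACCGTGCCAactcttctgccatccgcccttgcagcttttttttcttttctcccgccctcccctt
chr19:20006074-20006174: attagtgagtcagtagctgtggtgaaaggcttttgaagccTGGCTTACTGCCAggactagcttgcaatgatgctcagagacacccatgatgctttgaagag
chr17:30177501-30177601: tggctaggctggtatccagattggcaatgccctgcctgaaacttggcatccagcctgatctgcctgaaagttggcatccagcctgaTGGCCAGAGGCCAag
The 2 highest regions with sequence and no palindrome of either form are shown for contrast, with each single-arm site TGGCA, on either strand, in capitals. The first lies in the lincRNA Gm47334 between Arhgap42 and Cntn5 and held 1 TGGCA site in its window. It also held TTGGC arms that no A follows, which are left in small letters. The second lies in lincRNA B230214G05Rik between Fam19a5 and Zdhhc25 and held 4 TGGCA sites.
chr9:9583371-9583471: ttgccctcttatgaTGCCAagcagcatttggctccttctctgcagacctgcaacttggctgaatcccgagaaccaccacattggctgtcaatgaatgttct
chr15:88314913-88315013: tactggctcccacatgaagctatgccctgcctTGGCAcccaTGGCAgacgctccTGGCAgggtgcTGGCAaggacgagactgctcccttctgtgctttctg

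Across the 65 far windows the full palindrome was present in 4.62% (95% Wilson interval 1.58 to 12.7), against 16 of 205 near common windows (7.80%, 4.86 to 12.3). The 4-base form was present in 20% of far windows (12.1 to 31.3), against 29.8% of near windows (23.9 to 36.3). For both forms the intervals of the far and near regions overlap. In far regions called in 1 to 5 libraries the full palindrome was present in 4 of 297 windows (1.35%, 0.525 to 3.41). That interval overlaps the one of the far common regions. The 4-base form was present in 17 of the same 297 windows (5.72%, 3.60 to 8.97), below the interval of the far common regions. In 61 windows 1 kb to the side of far common regions that touched no peak it was present in 0, which allows a share of up to 4.92%. The same 4-base arms set 8 bases apart were present in 1 of 65 far windows (1.54%), and neither the 5-base arms 8 bases apart nor the scrambled arms TGTCG and CGACA were present in any. Among 32851 RefSeq promoters of 300 bases, a different length from the windows, 0.0365% held the full palindrome and 0.807% the 4-base form.

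Single-arm sites were common in the far windows. TTGGCA, which contains TGGCA, was present in 24 of 65 (36.9%, 26.2 to 49.1), against 37.6% of near windows, and in 8.20% of the windows to the side of far common regions. TGGCA was present in 43 of 65 (66.2%, 54.0 to 76.5), against 76.6% of near windows, and in 27.9% of those side windows. The share of promoters with each was 14.1% for TTGGCA and 48.9% for TGGCA. Of the motifs of other factors searched on both strands, the E-box CAGCTG, a form bound by basic helix-loop-helix factors, was present in 18.5% of far windows (10.9 to 29.6), against 20.5% of near windows and 3.28% of side windows. The E-box CAGATG was present in 18.5% of far windows, against 28.3% of near windows and 8.20% of side windows. The Zic element CAGCAGG was present in 10.8% of far windows, against 8.78% of near windows and 4.92% of side windows. In far regions called in 1 to 5 libraries the shares were 31.3% for TTGGCA, 61.3% for TGGCA, 20.2% for CAGCTG, 20.2% for CAGATG and 7.74% for the Zic element. Among far regions these motifs were thus not particular to the common ones. The E-box CACGTG, the Sox element AACAAAG, the AP-1 element TGAGTCA and the CTCF core (CCAC, any base, AGG, any base, GGCAG) were present in at most 2 of the 65 far windows. The median G+C content was 52.5% in far windows, 54.5% in near windows and 45.5% in the side windows. These windows lie in transcribed sequence or promoters and need not stand for the other far regions, and the intervals cover counting error only.

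**Figure D1:**
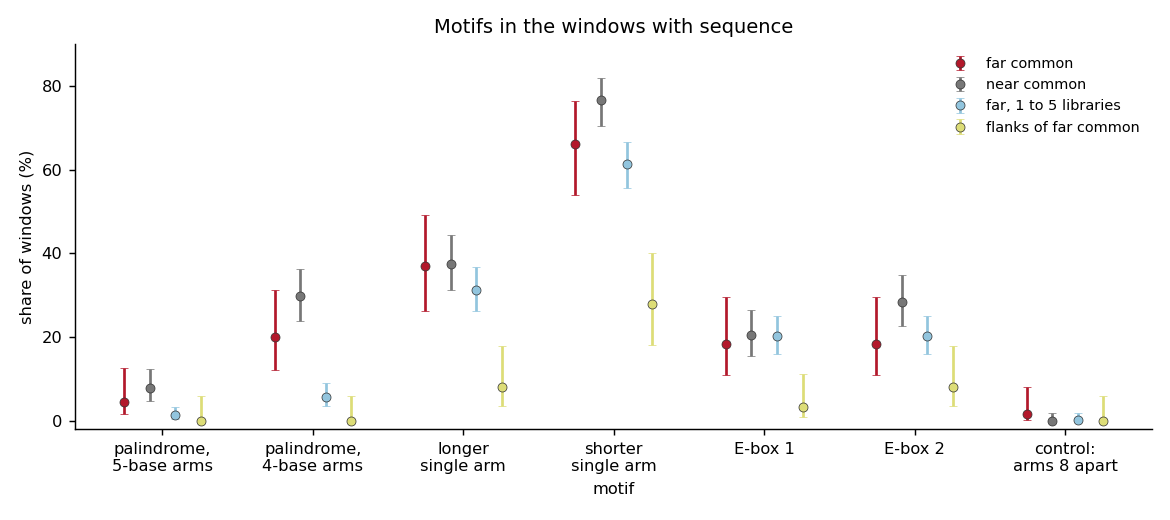
Share of windows of 50 bases to either side of the summit that hold each motif (vertical axis, percent) in far common, near common and other far regions and in windows beside the far common ones; points are shares and bars 95% Wilson intervals. The longer and shorter single-arm sites are TTGGCA and TGGCA, and E-box 1 and E-box 2 are CAGCTG and CAGATG. The 4-base palindrome stands at 20% in far common windows and at 0 beside them.

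Of 15147 merged regions more than 100 kb from a start site, 2521 had a peak in all 6 libraries (16.6%), against 3541 of 30923 nearer regions (11.5%), and 13.2% of all merged regions. These shares follow from the rule and carry no test. Far regions with a peak in 1, 2, 3, 4 and 5 libraries numbered 4433, 2407, 1811, 1875 and 2100. The NfiX CD1 library was the one missing in 1851 of the 2100 far regions with 5 libraries (88.1%), and its list was the shortest, with 7497 peaks against up to 36431 in NfiB CD1. Far common regions took 7.06% of the NfiB CD1 list and 34.5% of the NfiX CD1 list. Without the NfiX CD1 library the rule gave 4372 far common regions.

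The far common regions had a higher fold enrichment than the near ones in all 6 libraries, but fewer reads under the summit. Fold is the peak caller's ratio of reads piled up at the summit to the local background, each plus 1. The median fold was 8.48 in far and 7.68 in near common regions in NfiA CD1, and 9.20 in far and 8.30 in near in NfiA Mixed. In the NfiB libraries it was 13.0 in far and 11.2 in near common regions of CD1, and 11.3 in far and 9.79 in near common regions of Mixed. In the NfiX libraries it was 6.42 in far and 5.89 in near common regions of CD1, and 9.997 in far and 8.84 in near common regions of Mixed. The far regions were the higher ones in every library, while the quartiles of the 2 sets overlapped. The difference in median log2 fold, far minus near, averaged 0.17 ± 0.04 (SD, n = 6 libraries; exact two-sided sign-flip permutation test, p = 0.0312, the smallest 6 libraries can give). Both sets passed the same rule on calls, and the 6 libraries share their regions, so this p measures the spread between libraries only.

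The reads and the background behind each fold were worked out from the deposited fold and p-value, and a whole number of reads matched every peak used. For NfiA the summit held a median of 30 reads in far and 35 in near common regions of CD1, and 42 in far and 48 in near common regions of Mixed. For NfiB it held 63 in far and 69 in near common regions of CD1, and 57 in far and 62 in near common regions of Mixed. For NfiX it held 21 in far and 24 in near common regions of CD1, and 36 in far and 39 in near common regions of Mixed. The far regions were thus lower in all 6 libraries, by a mean log2 difference of -0.16 ± 0.05 (SD, n = 6; exact sign-flip permutation p = 0.0312). Their local background was lower by more, with a log2 difference of -0.42 ± 0.03 (SD, n = 6; exact sign-flip permutation p = 0.0312). The median background was 2.52 reads in far and 3.52 reads in near common regions of NfiA CD1, and 3.80 in far and 5.01 in near common regions of NfiB CD1. The deposited -log10 p-values, which take both into account, hardly separated the sets, with medians such as 53.7 in far and 53.5 in near common regions of NfiB CD1. Their log2 difference was 0.02 ± 0.02 (SD, n = 6; exact sign-flip permutation p = 0.0625), higher in 5 of 6 libraries and equal in the other. The higher fold of the far regions therefore went with a lower background and not with more reads, and ranks by fold are used below only for description.

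**Figure D2:**
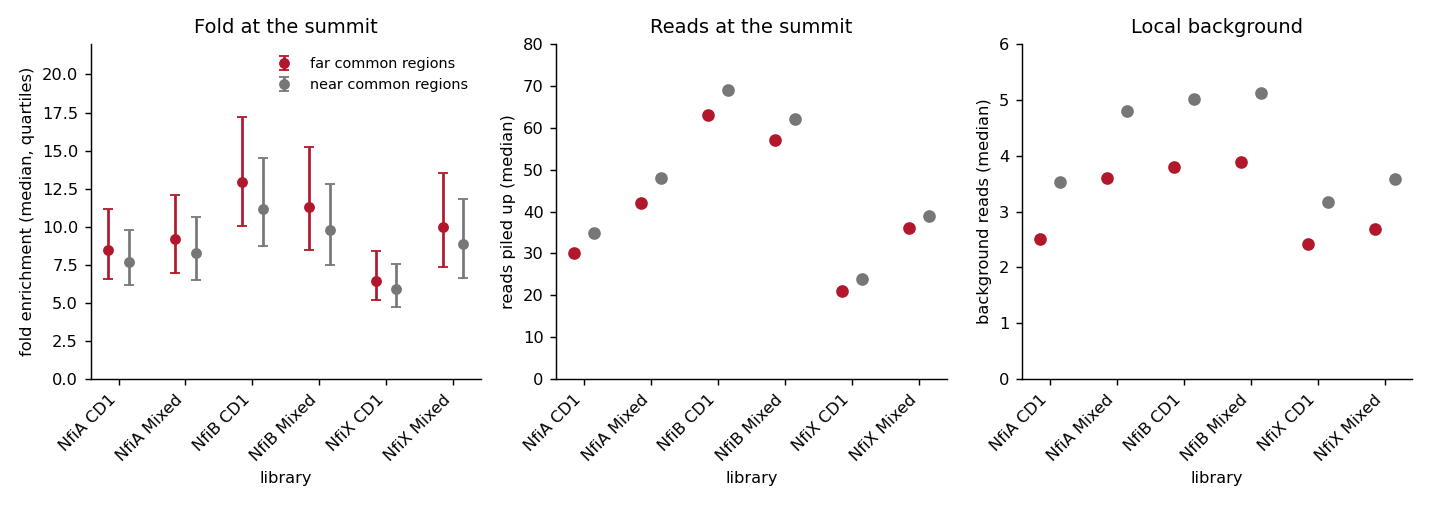
Median fold with quartiles (left), median reads at the summit (middle) and median local background in reads (right) for each of the 6 libraries, far common regions in red and near common regions in grey. Far regions stand above near ones in fold, such as 8.48 and 7.68 in NfiA CD1, and below them in reads (30 and 35) and background (2.52 and 3.52).

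The members lay a median of 246 kb from the nearest protein-coding start site, with quartiles of 159 and 401 kb and a highest value of 2422 kb. Between 100 and 200 kb were 974 members (38.6%), between 200 and 500 kb 1101 (43.7%), between 500 and 1000 kb 333 (13.2%) and beyond 1000 kb 113 (4.48%). The median fold stood higher in each farther bin in every library. In NfiB CD1 it was 12.4, 13.0, 14.5 and 15.2 from the nearest to the farthest bin, and in NfiX CD1 6.09, 6.48, 7.27 and 7.51. Reads at the summit numbered 67, 63, 60 and 48 in NfiB CD1, 22, 21, 20 and 18 in NfiX CD1 and 37, 35, 34 and 34 in NfiX Mixed, so the last 2 bins did not differ in NfiX Mixed. The background fell most, to 2.15 reads beyond 1000 kb against 4.54 reads between 100 and 200 kb in NfiB CD1. Among the near common regions the median fold within 1 kb of a start site and between 50 and 100 kb was 9.04 and 11.9 in NfiB CD1, and 5.30 and 5.96 in NfiX CD1. It was not in order over every near bin, as NfiX CD1 had 5.92 between 1 and 10 kb and 5.89 between 10 and 50 kb. These orders were noticed in the data and carry no test. The rule has a threshold in distance, and the 3 members just over it, near Ccdc90b, Gabra2 and Mef2a at 100.07 to 100.30 kb, had folds in NfiB CD1 of 10.5, 14.0 and 5.8. The 3 regions just under it, near Mapkap1, Vwc2 and Rgs2 at 99.89 to 99.99 kb, had 13.1, 29.9 and 19.2.

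**Figure D3:**
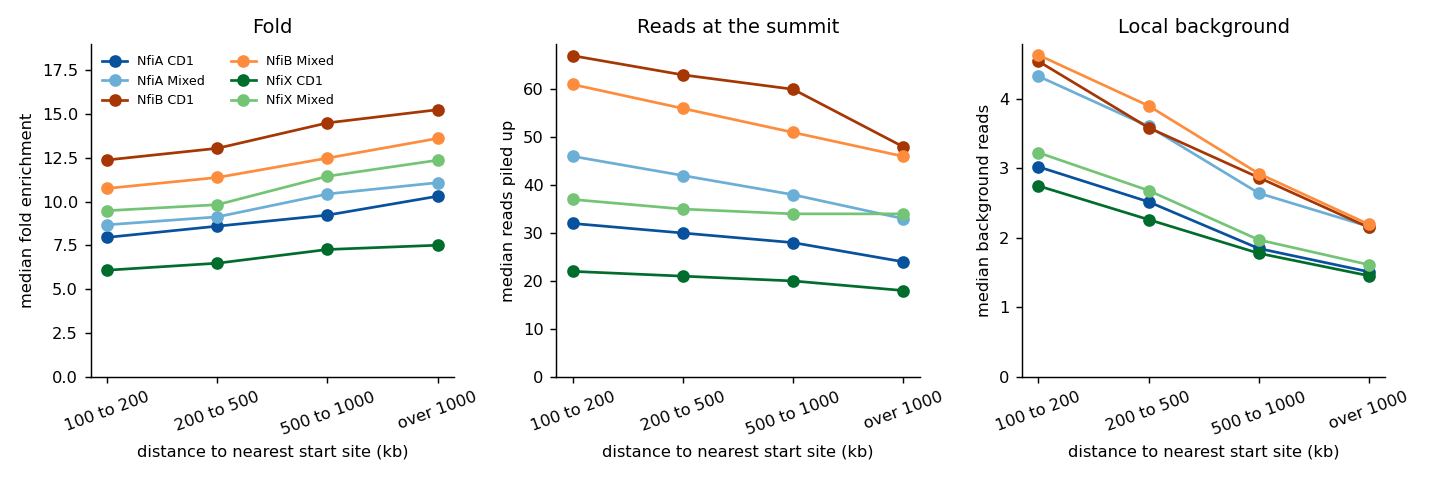
Median fold (left), median reads at the summit (middle) and median local background (right) of the far common regions in 4 bins of distance to the nearest protein-coding start site, 1 line per library. Fold is higher and background lower in each farther bin in all 6 libraries, as for NfiB CD1 with a fold of 12.4 in the nearest and 15.2 in the farthest bin.

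Far and near common regions had much the same shape. The median width was 604 bp in far and 579 bp in near common regions. The 6 summits of a region spanned a median of 65 bp in far and 60 bp in near common regions. In 2254 far regions (89.4%) each library had exactly 1 peak, against 90.8% of near regions. Over the far regions the Spearman correlation of fold between any 2 of the 6 libraries ranged between 0.442 and 0.798, a description over 2521 regions that share their genome and, within a background, may share an input. The highest value was between NfiA Mixed and NfiX Mixed, of different factors. The 2 libraries of a factor reached 0.677 for NfiA, 0.776 for NfiB and 0.648 for NfiX. The percentile of a peak's fold within its own list, averaged over the 6 libraries, was above 95 in 301 far regions (11.9%), against 216 near regions (6.10%). This is a rank by fold, which stood higher in far regions although their reads at the summit were fewer.

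The 10 members with the highest mean percentile lay in 8 cases outside protein-coding genes, near the share of 73.5% over all 2521 members. The highest, at chr10:15397051-15397642, stood between Nmbr, the neuromedin B receptor gene, at 637 kb and Cited2, a transcriptional coregulator gene, at 2326 kb. Its fold was 29.5 and 40.2 for NfiA, 30.5 and 46.5 for NfiB and 45.4 and 44.7 for NfiX (Mixed, then CD1). All 3 factors were far above the members' median in both backgrounds, which follows from its choice by mean percentile over these libraries. The next, at chr13:70198750-70199672, lay 389 kb from Med10, a Mediator subunit gene, and 397 kb from Ice1, a gene of the little elongation complex, with folds of 25.9 to 46.5. The third, at chr7:124169660-124170487, lay in an intron of Hs3st4, a heparan sulfate sulfotransferase gene, with folds of 19.5 in NfiX CD1 to 40.2 in NfiB Mixed. The fourth, at chr10:96293602-96294264, lay 157 kb from Gm5426 and 323 kb from Btg1, an antiproliferative gene, with folds of 20.6 to 34.2. The fifth, at chr9:9582274-9583944 between Arhgap42 and Cntn5, a contactin adhesion gene, covered the start of the long noncoding RNA Gm46102 and is the first of the sequences without a palindrome printed above.

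The other 5 of the 10 lay in an intron of the cadherin gene Cdh18 (folds 18.7 to 34.8), between Cntnap4 and Mon1b (22.3 to 33.4), between Nkain3 and Prdm13 (21.3 to 33.7), between Prickle1 and Adamts20 (20.4 to 28.2), and between the synaptic adhesion genes Slitrk6 and Slitrk5 (20.2 to 38.2). Prdm13 encodes a transcription factor known in GABAergic neuron specification, and Prickle1 a planar polarity protein. The 5 members farthest from any protein-coding start site lay between Pcdh20 and Pcdh9 (2422 kb), between Olfm4 and Pcdh17 (2210 kb), between Celf4 and Pik3c3 (2049 kb), between Pcdh7 and G6pd2 (2035 kb) and between Ptprd and Tyrp1 (2022 kb). Start sites of long noncoding RNAs lay nearer, such as 6.5 kb from the member near Celf4 and 68.0 kb from the one near Olfm4. Protocadherins are homophilic adhesion molecules of neurons. All 20 genes of the list of cadherins and protocadherins flank an interval over 200 kb, against 3911 of the 21943 genes with a protein-coding start site. These counts describe the spacing of genes and not NFI binding. The folds of these 5 farthest members ranged between 5.8 in NfiX CD1 near Olfm4 and 26.5 in NfiX Mixed near Celf4.

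**Figure D4:**
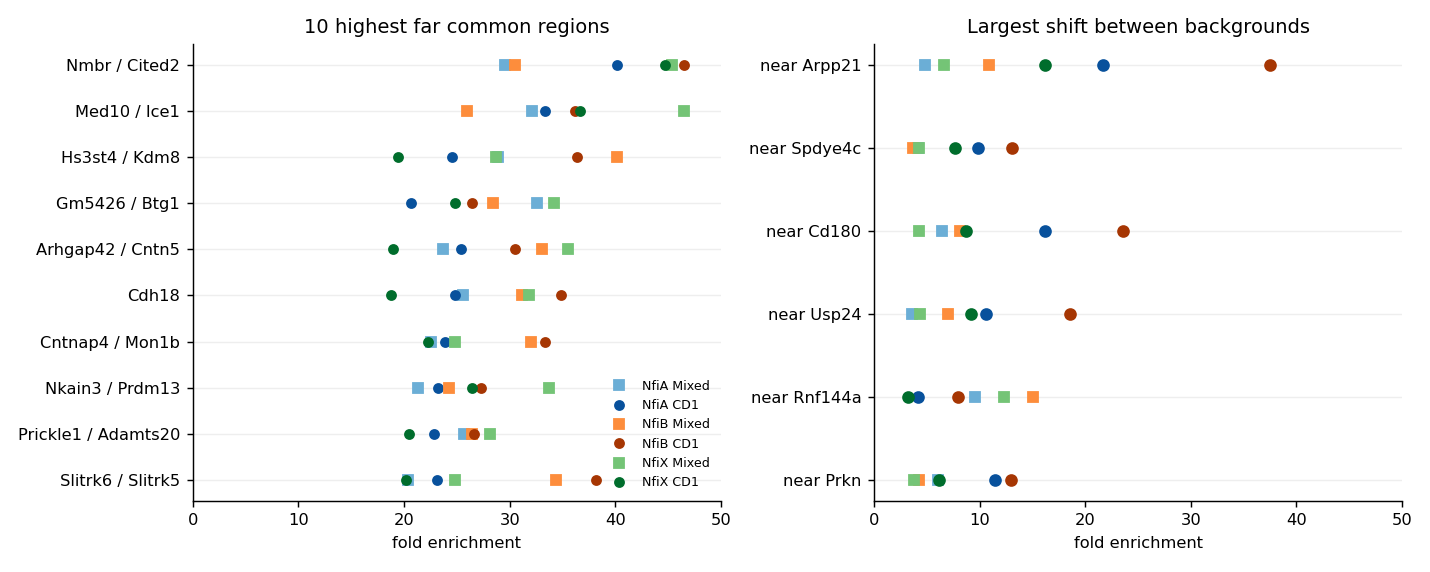
Fold enrichment in each of the 6 libraries (horizontal axis; squares Mixed, circles CD1) for the 10 far common regions with the highest mean percentile (left, named by flanking genes) and for the 6 whose fold differs most between backgrounds in the same direction for all 3 factors (right, named by nearest gene). The region between Nmbr and Cited2 stands at 29.5 or more in every library, and the region near Arpp21 is lower in all 3 Mixed libraries.

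Some members were high in 1 genetic background and low in the other for all 3 factors. These were picked by their values after the naming rule was set, and the comparison carries no test. The median Mixed-minus-CD1 difference in log2 fold over common regions was taken out for each factor, since lists are not on 1 scale. The remaining difference passed 1 log2 unit for all 3 factors in 6 far regions, 1 higher in Mixed (0.0397% of the 2521) and 5 higher in CD1 (0.198%). Among the 3541 near common regions it did so in 1 higher in Mixed and 1 higher in CD1. By reads in place of fold, 1 far region was higher in Mixed and 7 were higher in CD1. The strongest, at chr9:112573234-112573905 and 339 kb from Arpp21, a gene of a neuronal phosphoprotein, had folds of 4.8, 10.9 and 6.6 in the Mixed libraries of NfiA, NfiB and NfiX and of 21.6, 37.5 and 16.2 in their CD1 libraries. It had 13, 25 and 12 reads in the Mixed libraries and 41, 87 and 29 in the CD1 libraries. The 1 region higher in Mixed lay 209 kb from Rnf144a, in the interval that begins at Id2, a gene of an inhibitor of basic helix-loop-helix factors. Its folds were 9.6, 15.1 and 12.3 in the Mixed libraries and 4.2, 7.9 and 3.2 in the CD1 libraries. With 1 library per factor and background, a difference of library and of background cannot be told apart.

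Most members lay outside protein-coding genes. Of the 2521, 668 had their midpoint inside one (26.5%, 24.8 to 28.3), against 58.7% of near common regions and 30.4% of far regions called in fewer libraries. The distance rule bears on this share, as sequence close to a start site often lies in that gene. Only 28 far regions overlapped a protein-coding exon (1.11%), against 364 near regions (10.3%). A further 272 lay in a long noncoding RNA gene alone, and 1581 (62.7%) lay in neither kind of gene. Within 1 kb of a long noncoding RNA start site were 63 far regions (2.50%), against 84 near regions (2.37%). Among these were the regions at Gm46102 and B230214G05Rik named above and one 0.763 kb from a start site of Mir99ahg, a host gene of microRNAs, with folds of 13.1 to 31.5. Within 5 kb of a member lay 3 microRNA genes, the nearest being Mir7216 at 1320 bp. No such count is given here for other regions, so it cannot be read as few or many.

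Between neighbouring protein-coding start sites, 2646 intervals exceeded 200 kb and so could hold a member, and 1003 of them held at least 1 (37.9%). Sequence more than 100 kb from a start site made up 39.8% of the chromosomes' span and held 32.9% of all merged regions but 41.6% of the common ones. The density of common regions was 2.38 per Mb in far and 2.21 per Mb in near sequence. The far sequence of 1057 Mb includes 61.2 Mb of chromosome Y, which held no member. The spans were not limited to sequence that reads can be mapped to. Per chromosome the density of far common regions ranged from 1.83 per Mb on chromosome 19 to 3.87 on chromosome 9 among autosomes, with 0.453 on X and 0 on Y.

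The interval with the most members ran from Zfp608, a zinc finger gene, to Gramd3 and held 16 of its 54 far regions in 1.21 Mb. These lay 115 to 1058 kb from Zfp608, and the highest, 388 kb from it, had folds of 14.7 to 20.5. The interval from Myc, the proto-oncogene, to Gsdmc on chromosome 15 held 15 in 1.62 Mb, among 43 far regions. Of these, 2 lay in the long noncoding gene Pvt1, 119 and 121 kb from Myc, and the highest of the 15 lay 916 kb from Myc at chr15:62902738-62903695 with folds of 15.5 to 27.0. The intervals from Klhl29 to Apob and from Got2 to Cdh8, a cadherin gene, held 15 each, in 2.40 and 3.33 Mb. The interval from Hs3st4 to Kdm8 held 13, of which 7 were in Hs3st4 itself. By density among intervals with 5 or more, the 9 members between Prok2 and Rybp (24.9 per Mb) and the 7 between Lrfn2, a synaptic adhesion gene, and Mocs1 (23.7 per Mb) stood highest. As many as 6 of those between Lrfn2 and Mocs1 lay within 100 kb of each other. Long empty stretches existed as well: 10 of 73 intervals with 2 Mb or more of far sequence held no member. The interval from Myom2 to Csmd1 had 25 far regions and none of them common. Neighbouring members were a median of 280 kb apart, and 413 (16.4%) stood within 10 kb of another.

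**Figure D5:**
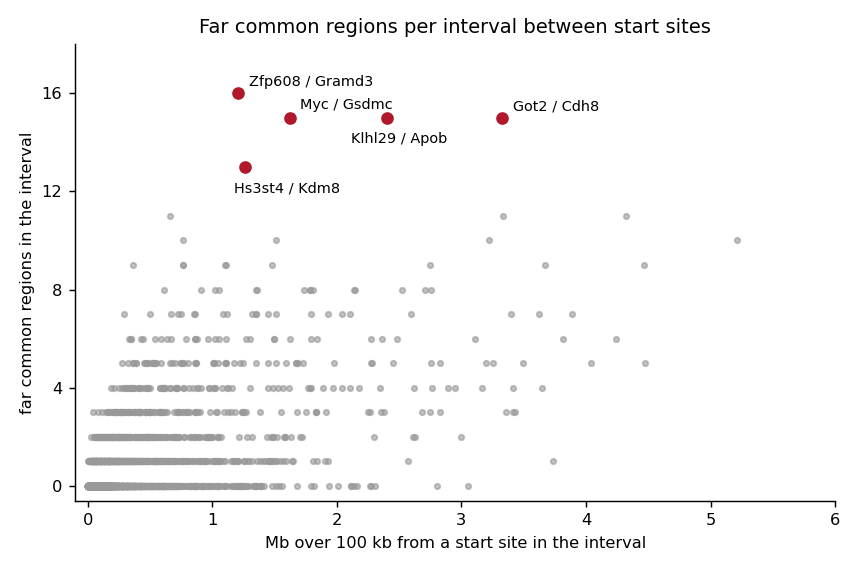
Number of far common regions (vertical axis) against the length of sequence more than 100 kb from a protein-coding start site (horizontal axis, Mb) for each interval between neighbouring start sites; the 5 intervals with most members are in red. The interval from Zfp608 to Gramd3 stands highest, with 16 in 1.21 Mb.

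Among protein-coding genes, 1109 had sequence in their body more than 100 kb from every start site, and 341 of them held a member (30.7%). The 10 genes with most members were all longer than the median of these 1109. Lsamp, a cell adhesion gene of the immunoglobulin family, held 10 in its 2197 kb, with the highest at folds of 9.6 to 19.8. Tenm2, a teneurin adhesion gene, held 9, and Cntnap2, a neurexin family gene, held 8 with a highest fold of 23.0. Hs3st4, the receptor tyrosine kinase gene Erbb4, the calcium channel subunit gene Cacna2d3, the glycosyltransferase gene Galnt17, Macrod2, the transcription factor gene Npas3 and the adhesion gene Sdk1 held 7 each. Per Mb of far sequence Hs3st4 (22.1) and Galnt17 (20.8) stood highest of these 10, and Cntnap2 (4.48) lowest. The median length was 433 kb for genes with a member, against 280 kb for all 1109 and 17.3 kb for all protein-coding genes.

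Lists of genes were counted beside that background of 30.7%, and beside the 42.1% of 3911 genes at an end of an interval over 200 kb whose interval held a member. A longer stretch of far sequence gives more room for a member, and its median was 98.4 kb over the 1109 genes. A longer interval gives more room too, and the shares of flanking genes were not adjusted for it. Members per Mb of such sequence numbered 6.08 for the migration list, 5.86 for axon guidance, 5.56 for the granule lineage factors, 4.14 for adhesion and synapse genes and 4.08 for ion channels, against 3.33 over all gene bodies. The hedgehog and proliferation list stood at 7.01, but only 2 of its genes had far sequence, and the value of the migration list rests on 8 genes. By this measure the cadherins (2.74) and the glutamate and GABA receptors (2.68) stood below all gene bodies, although the share of their genes with a member was above 30.7%. Of the neuronal migration genes, 7 of 8 with far sequence held a member (median far sequence 413 kb), and 12 of 15 that flank an interval had a member in it. Erbb4, a neuregulin receptor, held 7, Dab1, the adaptor of reelin signalling, 5, and Reln, which encodes reelin, 4. Astn2, a gene of glia-guided migration of granule cells, held 2, of which one at chr4:65763754-65764456 had folds of 24.3 and 19.3 for NfiA, 24.1 and 20.3 for NfiB and 25.5 and 24.7 for NfiX (Mixed, then CD1). All 6 values of this Astn2 region were above the upper quartile of the members in their list. It was named because it stood highest in its gene by these same values. The strongest in Reln, at chr5:22092931-22094629, had folds of 9.7 to 20.9, and the strongest in Dab1 folds of 9.5 to 20.4.

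Of the axon guidance genes, 16 of 23 held a member (median far sequence 219.9 kb). The Slit ligand gene Slit3 held 6, with a highest mean percentile of 72.2, while the ephrin receptor gene Epha6 held 4, of which one at chr16:60101911-60102705 had folds of 17.2 to 34.5. The ephrin receptor gene Ephb1 and the semaphorin receptor gene Plxna4 held 3 each. Of the adhesion and synapse genes, 19 of 28 held a member (median far sequence 582 kb), with Nrxn3, a presynaptic neurexin, at 6 after Lsamp, Tenm2 and Cntnap2. Of the cadherins, 7 of 14 did, led by Pcdh9 with 4, Cdh18 and Cdh13 with 3 each and Cdh4 with 2. The strongest in Pcdh9, at chr14:93384993-93385544, had folds of 16.7 in NfiX CD1 to 38.4 in NfiB CD1. Of the 20 cadherin genes that flank an interval over 200 kb, 19 had a member in it. This share was not adjusted for the length of the intervals. The one from Pcdh20 to Pcdh9 had 5.21 Mb of far sequence and 1.92 members per Mb. The one from Got2 to Cdh8 had 3.33 Mb and 4.51 per Mb, against 2.38 per Mb over all far sequence.

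Among genes of mature neuronal signalling, 13 of 20 glutamate and GABA receptor genes with far sequence held a member (median far sequence 215 kb), and 9 of 20 ion channel genes did (249 kb). The kainate receptor gene Grik2 and the GABA-A receptor subunit genes Gabra2 and Gabrb1 held 2 each. The strongest in Grik2 had folds of 8.8 to 26.4, with NfiX CD1 the lowest. Cacna2d3 held 7, and the potassium channel genes Kcnh7 and Kcnb2 and the calcium channel subunit gene Cacna2d1 held 2 each. The share for ion channels, 45%, stood nearest to the 30.7% over all genes with far sequence.

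Of transcription factor genes of the granule lineage, 10 of 14 with far sequence held a member. Npas3 held 7, Nfib 2 and Foxp2 1. Of the NFI genes, Nfic and Nfix had no far sequence, Nfia had 139 kb and no member, and Nfib had 115 kb and its 2 members, the stronger of them at chr4:82379073-82379492 of folds 17.8 and 18.1 for NfiA, 17.9 and 19.9 for NfiB and 21.9 and 12.6 for NfiX (Mixed, then CD1). Its second member had folds of 4.8 to 12.6. Of 32 genes of this list that flank an interval, 27 had a member in it. Of the hedgehog and proliferation genes, 2 had far sequence, and 1 of them, Gli3, a repressor and effector of hedgehog signalling, held 2. The stronger, at chr13:15691998-15692574, had folds of 20.4 and 19.6 for NfiA, 21.7 and 13.6 for NfiB and 34.7 and 25.3 for NfiX (Mixed, then CD1). Of 11 such genes that flank an interval, 6 had a member in it. None of the 25 genes of other cerebellar cell types had far sequence, and 4 of the 8 that flank an interval had a member in it, near the 42.1% over all such genes.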

How the data were processed

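ChIP-seq peak lists of 6 libraries (NfiA, NfiB and NfiX, each in CD1 and Mixed) were used as deposited. Per the submitters' processing notes the tools included Bowtie2 2.2.6, SAMtools 1.4.1 and MACS2 2.1.0 with mm10; whether peaks were called on pooled libraries is not given in the sources used here, but there is 1 list per library. Per the labels' protocols libraries were amplified and sequenced single-end. Each deposited list gives the authors' fold enrichment (a ratio) and the −log10 p-value and −log10 q-value per peak; the deposited integer score was not used. Read depth of the libraries is unknown here. Folds were tested only within a list, as log2 or as a percentile of the list; values of different lists are set side by side without a test, and differences between backgrounds were centred on the median of the common regions.

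Peaks overlapping by at least 1 bp were merged; a region took each library's strongest peak by fold. Start sites were those of protein-coding transcripts of GENCODE M21 (58844 sites). Reads at the summit (k) and background (b) were solved from fold = (k + 1)/(b + 1) and the Poisson upper tail, and matched the deposited −log10 p within 0.002 for 100% of the peaks used. The test of far minus near was an exact permutation of signs over the 6 libraries, two-sided. Shares have 95% Wilson intervals; beside a 0 stands the share that 3 counts would make. Python 3.11.15, pandas 2.3.3, NumPy 2.4.6 and SciPy 1.17.1 were used, and the steps were tested on simulated data. The members and lists were chosen with earlier results of these data known. Named regions were the 10 highest by mean percentile, the 5 farthest, the 5 with the widest spread, the 5 most even, and 3 on each side of the limit. Named genes were the 10 holding most members, the 5 fullest intervals by their flanking genes, and up to 4 per list. The share of repeat sequence was not analysed here, since it needs a genome. Alternatives concerned list length, threshold, distance, start sites, motif and measure. Some list genes that the naming rule picks are not reported here.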

Additional observations from a re-analysis of the deposited data

How the results depend on the processing

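The count of 2521 far common regions ranged between 2540 and 4372 when 1 library was left out, the highest being without NfiX CD1. It was 1413 with lists cut to their 7497 strongest peaks, 1547 with a limit of 200 kb and 490 with start sites of genes of every biotype. The other settings gave 2101 to 3488. The log2 fold difference of 0.17 was 0.16 to 0.22 with 1 library left out, where the smallest possible exact permutation p, 0.0625, was reached each time. It reversed to -0.16 with reads at the summit in place of fold and was 0.016 with −log10 p, measures added after seeing the data. The other settings kept its direction, each at an exact permutation p of 0.0312. The share of windows with the full palindrome, 4.62%, became 15.4% with 1 mismatch allowed and 20% with 4-base arms, and was 2.88% to 4.62% with 1 library left out, the lowest without NfiX CD1. The share inside a protein-coding gene, 26.5%, was 33.3% with a limit of 50 kb, 19.6% with 200 kb, 20.4% with every transcript of protein-coding genes and 35.3% with 1 start site per gene; the last 2 settings were added after seeing the data. Apart from settings that change the limit or the site itself, the cause of these shifts was not tested. No paired analysis was possible because the replicate number is the background and no test compared factors or backgrounds, so no block by replicate could be added; the comparison of far and near regions already takes the difference within each library. Only 65 regions have sequence, which limits the motif shares to the intervals given.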

Other observations

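The 2 members with the lowest mean percentile lay together near Esp38 at chr17:39843080-39846776 and chr17:39848055-39848919, with their midpoints in the noncoding genes Gm26917 and Gm42418. Their folds were 2.02 to 3.42 in all 6 libraries, below the members' lower quartile in every list. The first is the widest of all far common regions at 3697 bp, and its summits span 2199 bp, against a median of 65 bp. The next lowest member, in an intron of Zfhx3, had folds of 3.1 to 6.2.

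The 5 members with the widest spread of percentile over the libraries lay near Rnf144a, Sox14, Cxxc4, Plcb1 and Usp24. Near Sox14 the folds were 10.5, 12.3 and 9.4 in the Mixed libraries of NfiA, NfiB and NfiX, and 4.3, 8.6 and 3.3 in their CD1 libraries. Near Usp24 the order was the other way, with 3.6, 7.0 and 4.4 in the Mixed libraries and 10.6, 18.5 and 9.2 in the CD1 libraries. Near Cxxc4 the folds were 13.8 in Mixed and 18.1 in CD1 for NfiB, and 5.4 in Mixed and 3.4 in CD1 for NfiX, on the scales of different lists. These values were chosen for their spread and carry no test.

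Of 32 far common regions on the X chromosome and 46 near common ones, the far share was 41.0%, close to the 41.6% over all chromosomes, although the density of far common regions on X was 0.453 per Mb.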
